A study of Mus musculus with 5 samples.

Results

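Collagen chains are hydroxylated, glycosylated, folded and packed for export inside the cell, then trimmed and crosslinked outside it. The 53 genes described here encode the enzymes, chaperones, stress-response transcription factors and transport proteins of this route, and were taken as named rows from a table of 29818 genes. They fall into 9 groups by role, namely prolyl 4-hydroxylase (4 genes), lysyl hydroxylases and collagen galactosyltransferases (5), the prolyl 3-hydroxylase complex (6), the collagen chaperone HSP47 (Serpinh1) with FKBP prolyl isomerases and Tmem38b (5), general chaperones of the endoplasmic reticulum, ER (13), ER stress transcription factors (6), secretion (3), propeptide cleavage (6) and lysyl oxidases (5). All 53 had at least 1 UMI, a counted molecule, in each of the 5 libraries.

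The libraries are single-cell RNA-seq of cells digested out of femoral and tibial growth plate cartilage, 1 library from each of 5 mouse pups. By the study's methods the knock-in line was made on C57BL/6J, and the Cre line on a mixed background with SJL, later crossed to C57BL/6J. Pups 1 and 2 were labelled Wild type and pups 3, 4 and 5 Mutant, littermates that carry the conditional knock-in allele Trpv4 p.R594H recombined by Col2a1-Cre; TRPV4 is a calcium-permeable ion channel, and p.R594H a change linked to human skeletal dysplasia. The labels give postnatal day 5, and the study's design text day 3. Cre under Col2a1 acts in chondrocytes, so that the other cells of these digests are not the intended target. The study proposes, however, that perichondrial progenitors turn on Col2a1 as they become chondrocytes and so recombine the allele. It reports raised cartilage matrix genes in its mutant perichondrial cells. Which of the Cre and knock-in alleles the pups labelled Wild type carried was not given in the labels. Counts per gene, the only data read here, do not tell the alleles apart. Trpv4 itself stood at 159.7, 102, 90.3, 148 and 175 counts per 1000000 UMIs (CPM) in pups 1 to 5, with the labels overlapping.

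Hydroxylation of prolines lets the triple helix stay folded at body temperature, hydroxylation of lysines prepares both the sugars and the crosslinks, and the 3-hydroxylase complex and HSP47 act on or hold the chain while it folds. Cartilage makes type II collagen with types IX and XI, hypertrophic chondrocytes add type X, and bone, tendon and perichondrium make mostly type I, so that the cells of a growth plate use the same route for different collagens. Loss of several of these genes in people or mice gives brittle bones or skeletal dysplasia.

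The libraries held 117746735 to 183322632 UMIs, and 82516 cells with 200 to 6000 genes and at most 10% mitochondrial UMIs were kept. Cells over 6000 genes numbered 142 and 181 in the pups labelled Wild type and 23, 6 and 12 in those labelled Mutant, so that the upper limit fell unequally by label. Median depth per kept cell was 9261 and 8521 UMIs in the pups labelled Wild type, above the 6657, 6000 and 7016 of those labelled Mutant, so that depth and label cannot be told apart. Any pair of libraries shared 3 to 7 cell barcodes. Xist, expressed from an inactive X chromosome, stood at 0.114, 0.109, 647, 632 and 0.223 CPM in pups 1 to 5, and the Y-linked Ddx3y at 167, 189.6, 0.934, 0.672 and 201 CPM. Pups 3 and 4 therefore stood apart from pups 1, 2 and 5, the labels give no sex, and the sex of a pup and its genotype label are partly confounded. The study's own marker record lists Xist in cells of both genotypes, whereas both libraries labelled Wild type hold almost none. That record and the labels do not match, and which of them is wrong cannot be told, so no library was moved and the text writes of pups labelled Wild type or Mutant.

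Cells were clustered without the 53 genes, and clusters were named by their resemblance to marker lists, as resting-like, proliferating-like, hypertrophic-like and so on; the short names below stand for that resemblance. The resting class held 3770, 3671, 4035, 4702 and 4613 cells in pups 1 to 5, the proliferating class 1196, 1448, 954, 1131 and 1328, the hypertrophic class 177, 337, 424, 200 and 104 and the osteoblast class 23, 58, 168, 55 and 33. Col10a1 and Ihh led the hypertrophic cluster, Ibsp and Mmp13 the osteoblast cluster, and Prg4 was among the 10 leading genes of 4 of the 5 articular clusters, the fifth being led by Msmp and Stc1. Of the 4 tendon clusters, 1 was led by Kera and Tnmd and another by Thbs4, while a cluster of 3196 cells was led by the heat shock gene Hspa1b with Podn and had none of Kera, Tnmd and Thbs4 among its 10. The proliferating cluster held 8 of 8 markers above the other cells, but its leading genes were the antigen-processing genes H2-DMa and H2-DMb1 and the glycolytic gene Aldoc, and the perichondrial cluster, led by Cilp2, Lgr6 and Col1a1, scored slightly higher for tendon than for perichondrium. Of the 8 resting clusters, 7 scored higher for the proliferating list than for the resting list, and 3 to 5 of the 8 resting markers were above the other cells, 3 in 4 of the clusters. The hypertrophic cluster scored higher for the prehypertrophic list. Every comparison of resting, proliferating and hypertrophic cells below rests on these names. A cluster led by Bmp7 and marked by Tgfbi is called the Tgfbi class, and 2 clusters without a name are called Igfbp3-led and Ostn-led. The Igfbp3-led cluster scored best for the perichondrial list, and higher for it than the Cilp2-led cluster that took the name. The Ostn-led cluster scored best for the osteoblast list. Values given below for perichondrial cells are those of the Cilp2-led cluster and leave both of these out, except where another clustering is named. Erythroid cells, which do not make collagen, served as a reference for UMIs that a cell type should lack: 10.7% ± 3.30 of their UMIs came from fibrillar and fibril-associated collagens, against 16.4% ± 1.82 in all cells (means ± SD over 5 pups), at a median of 7156 UMIs per cell. Whether free RNA, doublets or misplaced cells supply these UMIs was not tested, and the collagen sum of erythroid cells varied from 53102 to 140038 CPM between pups, lowest in pup 1. A level at or under the erythroid mean is read here as background, within that limit. That mean is not a floor, since some classes lay far below it. Adamts2, for example, averaged 1.01 CPM in hypertrophic and 20.2 CPM in erythroid cells. Macrophages held 2.88% ± 0.847, so that the 2 references differ.

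General ER chaperones are known targets of the unfolded protein response, in which ATF6 and XBP1 act on a promoter element, the ERSE, read as CCAAT, 9 bases, and CCACG. Among the promoters of 38 of the 53 genes (RefSeq, GRCm38.p6, 250 bases before to 50 after the start site), 6 held the ERSE on either strand, which is 15.8%, against 37 of 27025 genes with a promoter, which is 0.137%. All 6 were general ER chaperones, 6 of the 11 of that group with a promoter, and they are shown because every match among the 38 promoters lay in that group. The other 5 chaperones with a promoter (Pdia3, Pdia4, Dnajb9, Dnajb11 and Sdf2l1) held none, nor did those of the 27 other members with a promoter. No promoter was searched for the remaining 15 genes, Plod2, Colgalt2, P3h2, Bmp1 and Lox among them, and of the lysyl oxidases 1 of 5 had one. The windows below run 5′ to 3′ on the strand of the gene, with capitals marking CCAAT and CCACG, or ATTGG and CGTGG where the element lies on the other strand.
Hspa5: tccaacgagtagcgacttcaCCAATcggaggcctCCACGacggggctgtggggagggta
Calr: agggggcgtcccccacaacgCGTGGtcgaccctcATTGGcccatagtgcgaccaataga
Hsp90b1 distal: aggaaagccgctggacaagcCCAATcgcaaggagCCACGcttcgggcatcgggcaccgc
Hsp90b1 proximal: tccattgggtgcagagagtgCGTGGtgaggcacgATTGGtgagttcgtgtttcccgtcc
Canx: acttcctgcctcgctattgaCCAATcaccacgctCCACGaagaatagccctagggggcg
Pdia6: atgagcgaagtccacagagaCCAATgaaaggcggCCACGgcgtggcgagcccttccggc
Creld2: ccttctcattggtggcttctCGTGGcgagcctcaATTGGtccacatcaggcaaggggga
The Hspa5 window is chr2:34772005-34772063 on the plus strand and begins 85 bases before the start site, and Pdia6 (chr12:17266471-17266529) and Creld2 (chr15:88819500-88819558) also lie on the plus strand. Calr (chr8:84847055-84847113), Canx (chr11:50325780-50325838) and both Hsp90b1 windows (chr10:86705618-86705676 and chr10:86705513-86705571) lie on the minus strand. Hsp90b1 held 2 matches, as did no other gene with a promoter in the table. Of 31 other unfolded protein response genes with a promoter, 4 held the element, which is 12.9%.

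The UPRE (TGACGTGG, both strands) was found in 3 of the 38 promoters, which is 7.89%, against 0.714% of all genes with a promoter. Those 3 were Sec23a and Sec24d, which encode the inner coat of the COPII vesicles that carry procollagen out of the ER, and Adamts3, an enzyme that removes the N-propeptide. The CARE (TGATGCAAT), a site for ATF4, was in none of the 38 and in 0.222% of all. The letters CCACG alone, which every ERSE contains, was in 28 of 38, which is 73.7%, against 35.5%. Of the 31 other unfolded protein response genes with a promoter, 6.45% held the UPRE, 3.23% the CARE and 77.4% the letters CCACG. A match in these letters is a description of the window and not a site of binding.

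Over all 53 genes together, the summed level was highest on average in the hypertrophic class, 28537, 24717, 25904, 27540.1 and 26220.5 CPM in pups 1 to 5, and in the proliferating class, 25849, 25532, 26389, 26777 and 24851 CPM. Resting cells held 22164, 21998, 21718, 22062 and 20148 CPM, below both of those classes in every pup. Perichondrial cells (17497 CPM on average) and tendon cells (17356 CPM) were lower again, and macrophages held 10780.1 CPM. Collagen UMIs ran the other way: 26.7% ± 1.66 of UMIs in perichondrial cells and 23.7% ± 2.84 in tendon cells came from the collagen list, against 12.8% ± 0.368 in the hypertrophic and 12.5% ± 0.580 in the proliferating class. Col1a1, Col1a2, Col3a1 and Col12a1 were among the markers of the perichondrial class, so its share is partly set by its name. Per 1000 collagen UMIs, Serpinh1 stood at 32.2 ± 2.45 in proliferating and 30.5 ± 2.18 in hypertrophic cells, 15.6 ± 0.998 in resting cells and 10.7 ± 0.605 in perichondrial cells. Plod2 gave 18.1 ± 1.26 and 16.0 ± 2.31 per 1000 in proliferating and hypertrophic cells, against 4.83 ± 0.633 in resting and 2.32 ± 0.223 in perichondrial cells. The collagen shares of the proliferating and hypertrophic classes, the base of these ratios, lay close to that of erythroid cells given above. Erythroid cells also held 2092 CPM of Serpinh1 and 707 CPM of Plod2. What part of the collagen UMIs in these classes comes from other cells was not tested. Lox went the opposite way, with 6.91 ± 0.894 per 1000 collagen UMIs in osteoblasts and 0.156 ± 0.0495 in proliferating cells. These libraries count tags from the 3′ end of transcripts and the classes differ in depth, with a median of 28216.5 UMIs per hypertrophic cell and 17300 per proliferating cell, so a level is compared between classes for 1 gene and not between genes. Sums over genes and the shares within a family below mix genes under that limit. They are read from class to class, and not as the amount of 1 gene against another.

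Across 8 skeletal classes (resting, proliferating, Tgfbi, hypertrophic, articular, perichondrial, tendon and osteoblast), 38 of the 53 genes had a range of mean level of 2-fold or more, and 15 stayed within 2-fold. The highest mean was in the hypertrophic class for 20 genes, in osteoblasts for 10, in the proliferating class for 7, in the Tgfbi class for 5, in resting and in tendon cells for 4 each and in articular cells for 3. Of all 9697 genes with 5 CPM or more, 19.2% were highest in the hypertrophic class, 17.0% in osteoblasts, 17.1% in the proliferating class, 10.8% in the Tgfbi class, 4.84% in resting, 8.7% in tendon and 2.5% in perichondrial cells, and the articular class had the most, 19.9%. Of the 13 general ER chaperones, 9 were highest in the hypertrophic class, while 0 of the 13 were called higher there than in proliferating cells by the rule given below, and their sum was 8808 CPM in the Tgfbi class, 8717 CPM in the hypertrophic and 8366 CPM in the proliferating class. The highest class lay above the erythroid level for all 53 genes, and at 2-fold or more over it for 37. All 8 classes lay above it for 15 genes, so that for the other 38 the low end of the range is at or under the erythroid level. With macrophages as the reference all 8 classes lay above it for 27 genes, so the number of genes that reach down to background depends on the reference. Tmem38b, which encodes an ER cation channel, was nearly flat in skeletal cells (8.44 to 11.2 CPM) and higher in pericytes (71.8 CPM), granulocytes (56.1 CPM) and macrophages (39.8 CPM). Sdf2l1 (53.4 CPM) and Atf6 (104 CPM) were likewise higher in macrophages than in any of the 8 skeletal classes.

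**Figure D1:**
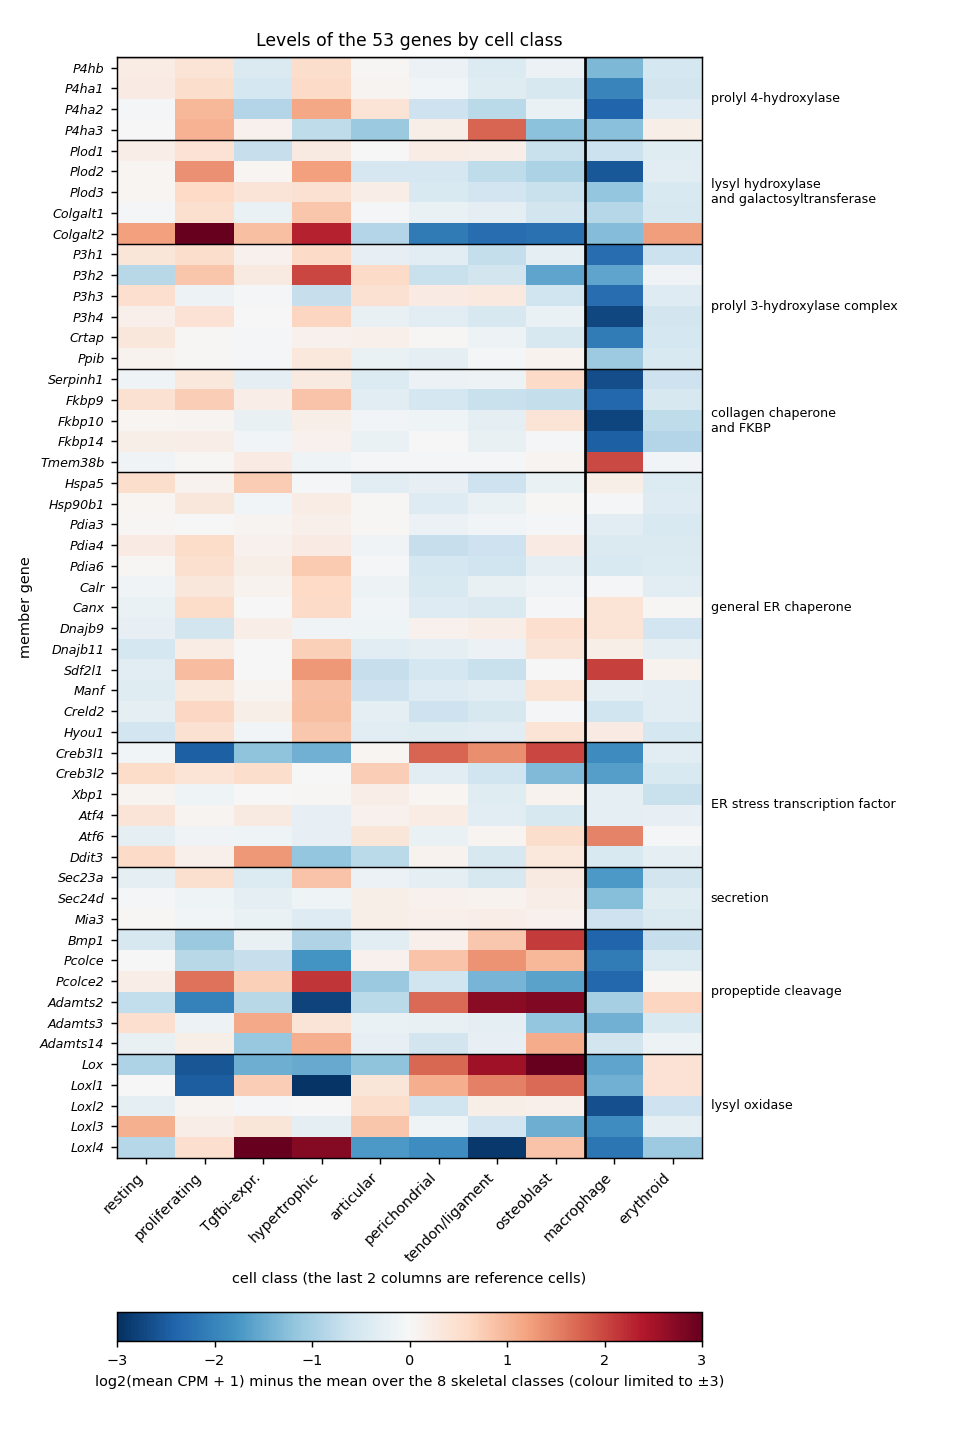
Mean level of each of the 53 genes in the 8 skeletal classes and in reference cells, as log2 of CPM + 1 relative to the gene's mean over the 8 skeletal classes, genes in rows grouped by role and classes in columns. Of the 13 general ER chaperones, 9 peak in the hypertrophic column and 0 were called higher there than in the proliferating one, while Lox, Creb3l1 and Adamts2 are high in the osteoblast and tendon columns and low in the proliferating and hypertrophic ones.

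Prolyl 4-hydroxylase is a tetramer of P4HB with an alpha subunit from P4ha1, P4ha2 or P4ha3, and its hydroxyprolines stabilise the helix. P4ha3 varied most among them. It stood at 142, 149, 169, 151 and 139 CPM in tendon cells of pups 1 to 5, and at 23.4, 29.8, 33.5, 24.3 and 17.4 CPM in hypertrophic cells. Every tendon value was above every hypertrophic value, and the osteoblast mean, 18.3 CPM, was lower still, both of the latter under the erythroid mean of 50.2 CPM. P4ha2 ran the other way, with 484, 426, 462, 516 and 500.1 CPM in the hypertrophic, 426, 363, 419, 493 and 442 CPM in the proliferating and 118, 122, 131, 91.2 and 144 CPM in the tendon class. Tendon lay below both chondrocyte classes in all 5 pups and on average under the erythroid mean of 165 CPM. P4ha1 was 876 ± 69.9 CPM in hypertrophic and 422 ± 141 CPM in osteoblast cells, and P4hb 1455 ± 98.9 and 743 ± 77.8 CPM in its highest and lowest classes. As shares of the alpha subunit UMIs, P4ha3 made up 29.7% ± 2.87 in the Ostn-led cluster and 1.89% ± 0.564 in hypertrophic cells, whereas P4ha1 stayed between 48.9% and 74.2% over the skeletal classes and fibroblasts.

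Lysyl hydroxylases (Plod1, Plod2, Plod3) modify lysines of the helix and telopeptides, PLOD2 those of the telopeptides, and COLGALT1 and COLGALT2 add galactose to hydroxylysine. Colgalt2 (chr1:152399805-152510695) had the widest range of the group. Its level was 488, 553, 511, 520.4 and 585 CPM in proliferating cells, 269, 284, 239.9, 377 and 361 CPM in hypertrophic cells, 154, 169.6, 104, 108 and 177 CPM in resting cells and 12.5, 11.8, 8.78, 11.1 and 21.6 CPM in perichondrial cells of pups 1 to 5. The proliferating class was highest in all 5 pups and the perichondrial class lowest of these 4; resting cells were near the erythroid mean of 147 CPM, and articular, perichondrial, tendon and osteoblast cells lay under it, which reads as background. Plod2 (chr9:92539636-92608428) stood at 2148, 2184, 2034, 2465 and 2472 CPM in proliferating, 2134, 1766, 1675, 2380.0 and 2299 CPM in hypertrophic and 998, 965, 747, 910.3 and 979 CPM in resting cells, against 341, 566, 466, 408 and 489 CPM in osteoblasts. Proliferating and hypertrophic values overlapped one another and lay above all resting and osteoblast values, and osteoblasts lay under the erythroid mean of 707 CPM. Colgalt1, Plod1 and Plod3 varied less, by 2.62-, 2.19- and 2.39-fold. Plod2 supplied 85.9% of lysyl hydroxylase UMIs in the proliferating class, and Colgalt2 50.6% ± 4.58 of galactosyltransferase UMIs there but 3.91% ± 1.43 in perichondrial cells.

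The 3-hydroxylase complex of P3H1, CRTAP and cyclophilin B (Ppib) modifies single prolines and aids folding, P3h2 and P3h3 are related enzymes, and P3H4 works with P3H3 and lysyl hydroxylase. P3h2 gave 180.3, 184, 177, 175 and 187 CPM in hypertrophic cells and 28.7, 26.1, 26.7, 21.2 and 20.6 CPM in resting cells of pups 1 to 5. All hypertrophic values were above all resting ones, and resting, perichondrial, tendon and osteoblast means lay under the erythroid mean of 41.5 CPM. P3h1 had 203, 195, 193, 192 and 189 CPM in the hypertrophic, 169, 156, 163, 181 and 166 CPM in the resting and 79.9, 73.9, 81.1, 75.2 and 81.5 CPM in the tendon class. Tendon was lowest in all pups, and hypertrophic and resting values lay closer together. P3h3 had the reverse order, 164 ± 14.0 CPM in resting and 70.9 ± 12.3 CPM in hypertrophic cells, the second under the erythroid mean of 87.7 CPM. Of the 3 enzymes' UMIs, P3h2 made up 40.5% ± 1.66 and P3h3 15.8% ± 2.10 in hypertrophic cells, against 6.92% ± 0.781 and 46.0% ± 2.56 in resting cells. Crtap and Ppib ranged by 1.79- and 1.52-fold, within 2-fold.

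HSP47, encoded by Serpinh1, binds the folded procollagen helix, and FKBP9, FKBP10 and FKBP14 are prolyl isomerases of the ER. Serpinh1 (chr7:99345375-99353239) reached 3567, 5178, 5978, 5503 and 3849 CPM in osteoblasts and 3863, 3739.6, 4339.7, 4399.8 and 3786 CPM in proliferating cells, with 2405, 2109, 2449, 2862 and 2348 CPM in articular cells and 562, 353, 491, 717 and 443 CPM in macrophages of pups 1 to 5. Osteoblasts of pup 1, with 23 cells, held the lowest osteoblast value, and macrophages lay far below the other classes in every pup. Fkbp9 stood at 2149.6, 1936, 2089, 2137 and 2066 CPM in hypertrophic, 1977, 1859, 1867, 2054 and 1875 CPM in proliferating and 632, 708, 865, 672 and 614 CPM in osteoblast cells. Both chondrocyte classes lay above osteoblasts in every pup, and osteoblasts under the erythroid mean of 825 CPM. Fkbp10 was highest in osteoblasts (544 ± 113 CPM), and Fkbp14 differed by 1.34-fold between its extremes.

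General ER chaperones bind many secreted proteins, BiP (Hspa5) and GRP94 (Hsp90b1) being the most familiar. Sdf2l1, a partner of BiP, gave 33.1, 24.1, 29.7, 35.1 and 33.3 CPM in hypertrophic and 7.69, 6.79, 9.28, 7.01 and 4.62 CPM in articular cells. Creld2, one of the genes with an ERSE above, gave 131, 108, 131, 134 and 112 CPM in hypertrophic, 98.6, 95.7, 111, 114 and 91.6 CPM in proliferating and 52.1, 60.7, 60.8, 55.7 and 43.3 CPM in resting cells. For both genes, hypertrophic values lay above those of articular or resting cells in all 5 pups. Hspa5 did not follow them, with 3564, 5524, 4381, 2891 and 3233 CPM in the Tgfbi class, 3295, 4304, 3341, 2858 and 2929 CPM in resting and 2462, 2185, 2334, 2195 and 2191 CPM in hypertrophic cells. The Tgfbi values were above all hypertrophic values. Of the 6 genes with an ERSE, Calr, Canx, Pdia6 and Creld2 were highest in hypertrophic cells, Hsp90b1 in proliferating cells and Hspa5 in the Tgfbi class. Manf, a stress-induced secreted factor, was 459 ± 41.9 CPM in hypertrophic and 161 ± 24.0 CPM in articular cells, whereas Pdia3 differed by 1.25-fold over the 8 classes.

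Among the transcription factors, CREB3L1 (OASIS) and CREB3L2 (BBF2H7) are ER-bound factors known in bone and in cartilage respectively, ATF6 and XBP1 act in the unfolded protein response, and ATF4 and CHOP (Ddit3) in the integrated stress response. Creb3l1 (chr2:91982328-92024170) stood at 521, 693, 855, 761 and 612 CPM in osteoblasts, 584, 536, 554, 632 and 573 CPM in perichondrial and 25.7, 21.9, 39.3, 37.5 and 28.2 CPM in proliferating cells. All proliferating values were below the erythroid mean of 138 CPM, and all osteoblast and perichondrial values above it. Creb3l2 ran the opposite way, with 401 ± 6.89 CPM in articular and 95.3 ± 21.6 CPM in osteoblast cells, and its share of the pair went from 12.6% ± 4.57 in osteoblasts to 91.2% ± 2.50 in proliferating cells. Ddit3 was 184, 320.2, 204, 119 and 170.4 CPM in the Tgfbi class, 143, 167, 96.6, 84.0 and 114 CPM in resting and 43.1, 39.2, 36.8, 23.5 and 34.7 CPM in hypertrophic cells. The Tgfbi class was above the hypertrophic class in every pup, and the hypertrophic mean was under the erythroid mean of 67.0 CPM. The sum of 19 genes known to respond to tissue dissociation was 23240.5, 30030.3, 19396, 18683 and 22188 CPM in the Tgfbi class, 20235, 17580.3, 11515, 15870.3 and 19223 CPM in resting and 12520.5, 15316, 12525, 12469 and 15566 CPM in hypertrophic cells, and its part in the Ddit3 levels was not tested.

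In the secretion group, Sec23a was 269, 284, 255, 273 and 295 CPM in hypertrophic and 116, 113, 103, 101 and 105 CPM in tendon cells, with no overlap. Mia3, which encodes the large-cargo receptor TANGO1, was 312, 297, 302, 306 and 271 CPM in tendon and 209, 212, 194, 187 and 181 CPM in hypertrophic cells. Sec24d ranged from 101 to 139.9 CPM. None of 22 other COPII and large-cargo genes reached 2-fold in 1 direction in all pups in any of the 6 class comparisons below.

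Procollagen loses its C-propeptide to BMP1, aided by the enhancers PCOLCE and PCOLCE2, and its N-propeptide to ADAMTS2, ADAMTS3 or ADAMTS14. Adamts2 (chr11:50602085-50807573) stood at 97.0, 98.0, 91.3, 88.9 and 84.5 CPM in osteoblasts, 92.5, 98.5, 89.5, 90.2 and 70.8 CPM in tendon and 1.56, 1.14, 1.22, 0.412 and 0.709 CPM in hypertrophic cells. Hypertrophic cells held the lowest level in every pup, and the resting, proliferating, Tgfbi, hypertrophic and articular means were all under the erythroid mean of 20.2 CPM, which reads as background. Adamts3 was highest in the Tgfbi class (56.0 ± 11.2 CPM) and lowest in osteoblasts (10.6 ± 3.31 CPM). Pcolce2 (chr9:95637628-95695551) gave 1146, 900.0, 883, 1122 and 1094 CPM in hypertrophic, 761, 749.7, 688, 729.7 and 639.6 CPM in proliferating and 100.4, 69.5, 46.9, 160.1 and 61.8 CPM in tendon cells. Hypertrophic values were above all others, and tendon values under the erythroid mean of 235 CPM. Its paralogue Pcolce had the opposite order, 608 ± 98.9 CPM in tendon and 68.7 ± 26.1 CPM in hypertrophic cells (erythroid mean 181 CPM), so that Pcolce2 made up 93.8% ± 1.77 of the UMIs of the pair in hypertrophic cells and 3.87% ± 1.47 in the Ostn-led cluster. Adamts2 and Adamts3 traded places in the same way, Adamts2 with 77.0% ± 1.91 of the N-proteinase UMIs in osteoblasts and 1.98% ± 0.867 in hypertrophic cells, and Adamts3 with 85.3% ± 6.55 in the Tgfbi class. Bmp1 was 441 ± 47.6 CPM in osteoblasts and 46.5 ± 4.22 CPM in proliferating cells.

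**Figure D2:**
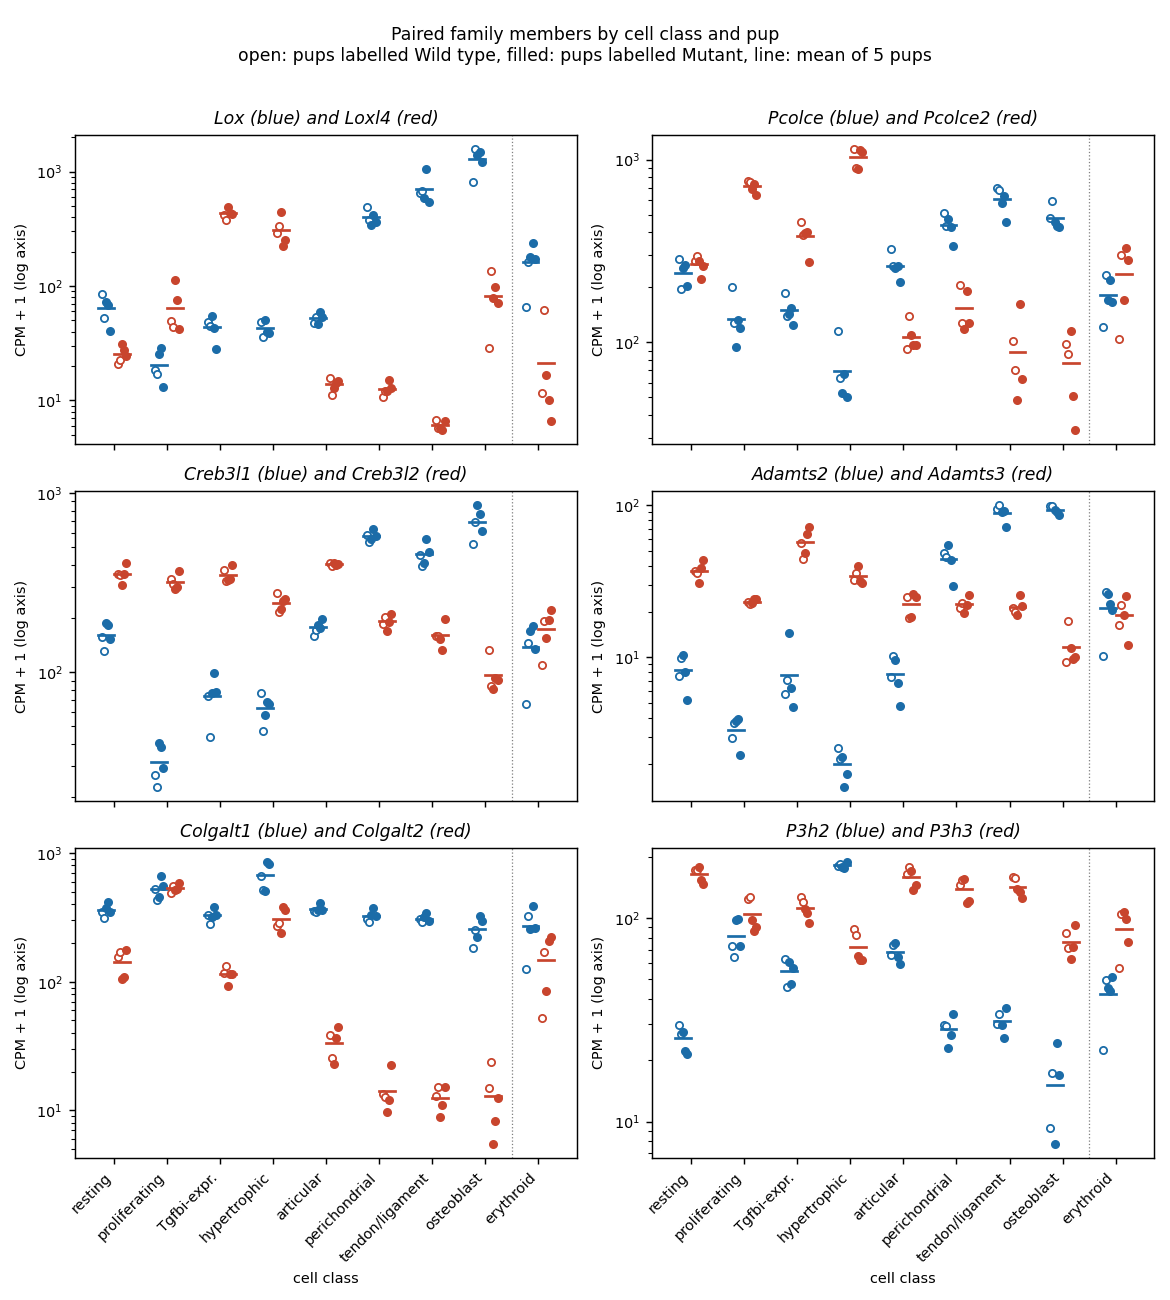
Level in CPM, on a log axis, of 6 pairs of related genes in the 8 skeletal classes and in erythroid cells, where each point is 1 pup (open for Wild type, filled for Mutant labels) and lines are means of 5 pups. From tendon to hypertrophic cells the means of Lox, Pcolce and Creb3l1 go down while those of Loxl4, Pcolce2 and Creb3l2 go up.

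Lysyl oxidases oxidise lysines of collagen and elastin to start their crosslinks. Loxl4 (chr19:42592279-42612806) stood at 415, 379.8, 494, 437 and 426 CPM in the Tgfbi class, 288, 335, 439, 222 and 249.5 CPM in hypertrophic cells and 5.79, 4.74, 4.80, 4.50 and 5.63 CPM in tendon cells of pups 1 to 5. The Tgfbi and hypertrophic values lay above all tendon values; tendon, articular and perichondrial means were at or under the erythroid mean of 20.4 CPM. Loxl4 was also 1 of the 10 leading genes of the Tgfbi cluster, although none of the 53 genes was used to form the clusters. Lox gave 815, 1586, 1398, 1479.7 and 1212 CPM in osteoblasts, 652, 678, 588, 1054 and 540.4 CPM in tendon and 17.3, 16.0, 24.6, 27.9 and 12.1 CPM in proliferating cells. Osteoblast and tendon values lay above all proliferating values, and every chondrocyte class was under the erythroid mean of 162 CPM. Loxl3 was highest in resting cells (369.7 ± 33.6 CPM) and lowest in osteoblasts (63.5 ± 15.5 CPM), Loxl2 was highest in articular cells (717 ± 154 CPM), and Loxl1 was 188 ± 33.8 CPM in the Ostn-led cluster and 2.84 ± 0.761 CPM in hypertrophic cells. Of all lysyl oxidase UMIs, Lox made up 63.2% ± 8.38 in osteoblasts and 2.37% ± 0.693 in proliferating cells, Loxl2 63.1% ± 2.78 in articular cells, Loxl3 41.5% ± 3.71 in resting cells, and Loxl4 35.4% ± 5.00 in the Tgfbi class and 30.5% ± 6.69 in hypertrophic cells. Shares in erythroid cells (22.9% for Lox, 47.6% for Loxl2) were close to those of all cells (22.3% and 46.6%).

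**Figure D3:**
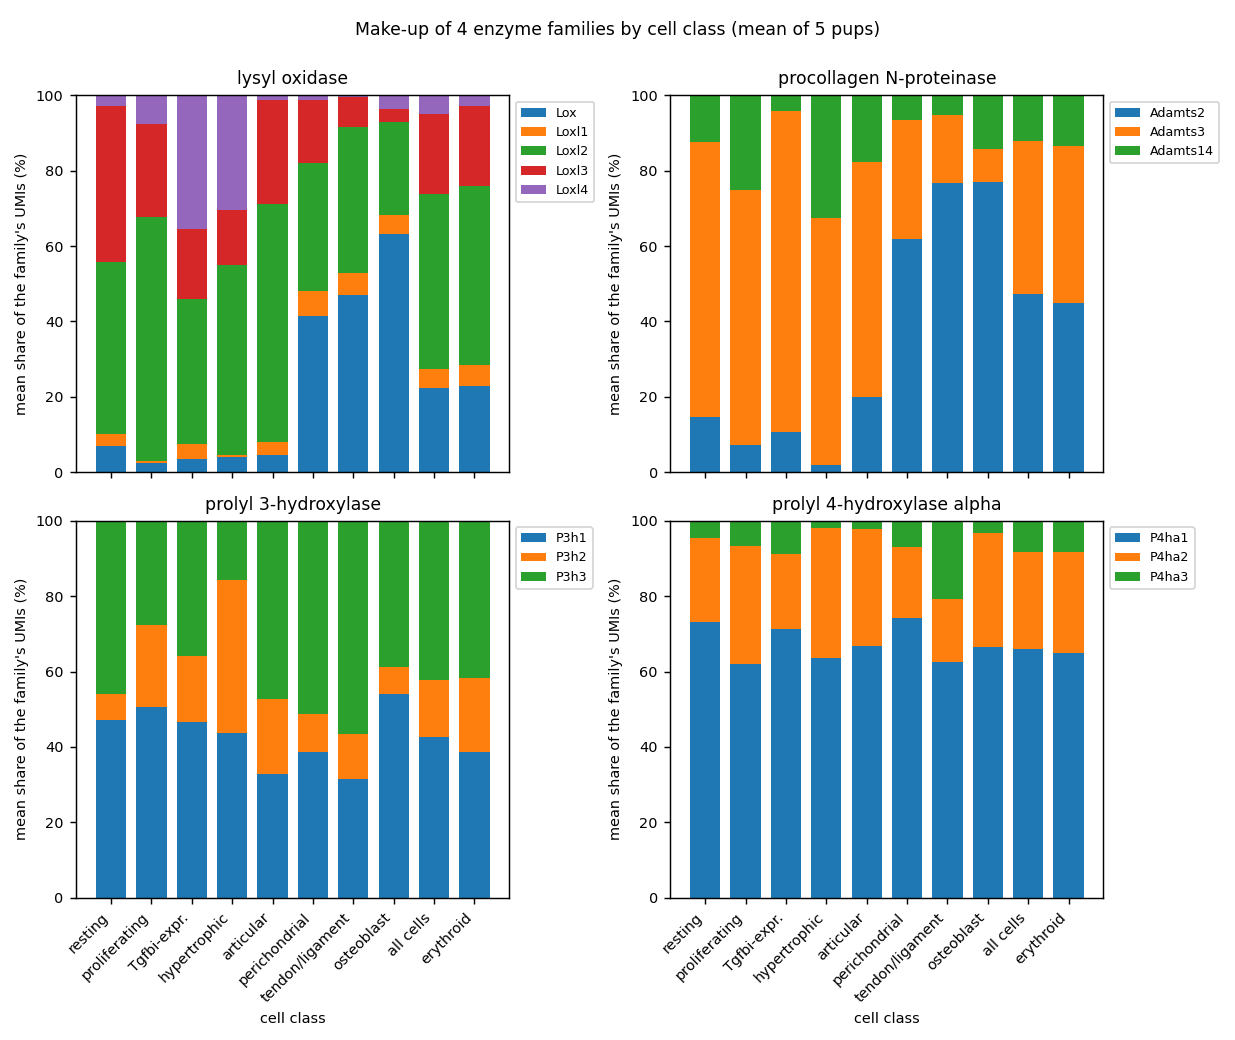
Share in percent of each gene among the UMIs of its family for 4 enzyme families, as stacked bars by class, means over 5 pups. Loxl4 takes a large part of the lysyl oxidase bar in the Tgfbi (35.4%) and hypertrophic (30.5%) classes, Lox takes 63.2% in osteoblasts, and the erythroid bar is close to the bar of all cells.

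Within each pup the levels of 2 classes were also set against each other, as the log2 ratio with 1 CPM added (means ± SD over 5 pups, and no test, since the classes were cut from the same counts). A gene is called higher or lower where the ratio had 1 direction in all 5 pups and a mean of at least 1, where the gene's level averaged 5 CPM or more. Of the 53 genes, 18 were called in at least 1 of 6 comparisons, where 31.4% of all genes with enough UMIs were, and 35 in none. Of the 43 calls, 11 set 2 levels against each other that both lay at or under the erythroid mean, and these are marked below as background. That mark depends on the reference, since in each of the 11 the higher level lay above the macrophage mean. In proliferating over resting cells, 9 of 52 genes were called higher and 3 lower, where 6.78% and 6.65% of all genes were. At resolution 0.8 of the clustering the 12 called were 7 (10.3% of all genes). The 9 were Colgalt2 (1.92 ± 0.32), P3h2 (1.66 ± 0.38), Pcolce2 (1.42 ± 0.18), Plod2 (1.30 ± 0.15), Loxl4 (1.26 ± 0.42), Sdf2l1 (1.24 ± 0.16), P4ha3, P4ha2 and Hyou1, and Loxl1 (-2.51 ± 0.29), Creb3l1 (-2.39 ± 0.16) and Lox (-1.65 ± 0.36) were lower, Loxl1 and Lox at background in both classes. The median of the group was 0.26 against 0.14 over all genes. The collagen list went down in the same comparison, with 8 of 16 called lower and Col10a1 alone higher (2.46 ± 1.67). Col9a1 and Col11a2, of that list, were also markers that named the proliferating class. In hypertrophic over proliferating cells, 4 of 51 genes were called higher and 2 lower (all genes, 3.45% and 4.2%): Loxl4 (2.32 ± 0.55), P3h2 (1.18 ± 0.31), Lox and Creb3l1, the latter pair at background in both classes, and P4ha3 (-1.82 ± 0.30) and Ddit3 (-1.28 ± 0.31). The median was 0.10 against -0.11 over all genes. Of the 19 dissociation response genes, 1 was called higher and 3 lower there, with a median of -0.51. In articular over resting cells, P3h2 (1.41 ± 0.15) was called higher and Colgalt2 (-2.11 ± 0.43), Ddit3 (-1.36 ± 0.33), Pcolce2 (-1.34 ± 0.20) and P4ha3 (-1.10 ± 0.14) lower, out of 53 (all genes, 3.42% and 2.57%), and 8 of the 19 dissociation response genes were lower too. Colgalt2 and P4ha3 were at background in both classes by the erythroid mean, though Colgalt2 stood at 142 CPM in resting and 32.5 CPM in articular cells. The part of the dissociation response genes in either Ddit3 ratio was not tested. Without the upper limit on genes per cell, 9 members were called in articular over resting cells (9.28% of all genes).

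Outside cartilage, 4 genes were called higher and 3 lower in perichondrial over resting cells (all genes, 3.02% and 5.33%). Lox (2.68 ± 0.35), Adamts2 (2.44 ± 0.17), Creb3l1 (1.84 ± 0.18) and Loxl1 (1.08 ± 0.12) were higher, and Colgalt2 (-3.37 ± 0.30), Loxl3 (-1.20 ± 0.23) and Loxl4 lower. Both Colgalt2 levels are marked as background, being under the erythroid mean of 147 CPM. Resting cells still held 142 CPM, against 13.2 CPM in perichondrial cells and 23.9 CPM in macrophages. Of 16 collagens, 7 were called higher there, Col1a1 among them (3.25 ± 0.28), and 6 lower, Col9a2 among them (-3.05 ± 0.23). Col1a1, Col1a2, Col3a1 and Col12a1 were markers that named the perichondrial class, so the collagen calls are partly set by the name. Osteoblast over perichondrial cells gave 5 higher and 5 lower (all genes, 10.7% and 7.74%), with Loxl4 (2.55 ± 0.74), Bmp1 (1.94 ± 0.26), Adamts14, Lox (1.67 ± 0.54) and Adamts2 higher and P4ha3 (-1.42 ± 0.55), Loxl3 (-1.35 ± 0.26), Pcolce2, Creb3l2 and P3h2 lower, of which P4ha3, Pcolce2 and P3h2 were at background in both classes. At resolution 0.8, 25.8% of the osteoblast cells fell in the Tgfbi class, and 60.8% kept their name. Loxl4 averaged 430 CPM in the Tgfbi class and 81.0 CPM in osteoblasts, and the part of such cells in its ratio was not tested. Tendon over perichondrial cells gave 2 higher, P4ha3 (1.58 ± 0.17) and Adamts2 (1.03 ± 0.21), and 1 lower, Loxl4, at background in both (all genes, 4.17% and 1.41%). Medians of the group in these 3 comparisons were -0.20, 0.11 and -0.05, and over all genes -0.09, 0.12 and 0.06. Clustered again without the upper limit on genes per cell, the name perichondrial went to other cells, a cluster led by Ostn and Igfbp3, and 65.6% of the perichondrial cells described here fell in an unnamed cluster led by Cilp2. With that cluster in place of the perichondrial class, a choice made after seeing the data, 10 members were called against resting cells (10.9% of all genes), 7 in osteoblasts over it (19.5%) and 2 in tendon cells over it (5.86%). At resolution 0.8 the members called numbered 13 in perichondrial over resting cells (10.7% of all genes) and 1 in tendon over perichondrial cells (4.91%).

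Of 34 other unfolded protein response genes, 30 to 32 had enough UMIs in a comparison, and 0 to 3 were called in a direction. Edem2, of ER-associated degradation (1.19 ± 0.19), and Ero1a, an oxidase of disulfide formation (1.58 ± 0.32), were higher in proliferating than resting cells, 2 of 32, and none was lower. Nupr1, a stress-induced regulator, was higher in hypertrophic than proliferating cells (1.31 ± 0.57), the 1 of 32 called there. The ATF4 target Trib3 (-2.14 ± 0.27) and Chac1 (-1.72 ± 0.43) were lower in perichondrial than resting cells, 2 of 31, where Nupr1 was the 1 called higher (1.87 ± 0.18). In articular over resting cells Trib3, Chac1 and Atf3 were lower, 3 of 31, and none was higher. In osteoblasts over perichondrial cells Edem2 (1.48 ± 0.48), Pdia5 and Nupr1 were higher and Herpud1 (-1.03 ± 0.32) lower, of 31, and none of 30 was called in tendon over perichondrial cells. The shares of all genes called in these comparisons are those given above.

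**Figure D4:**
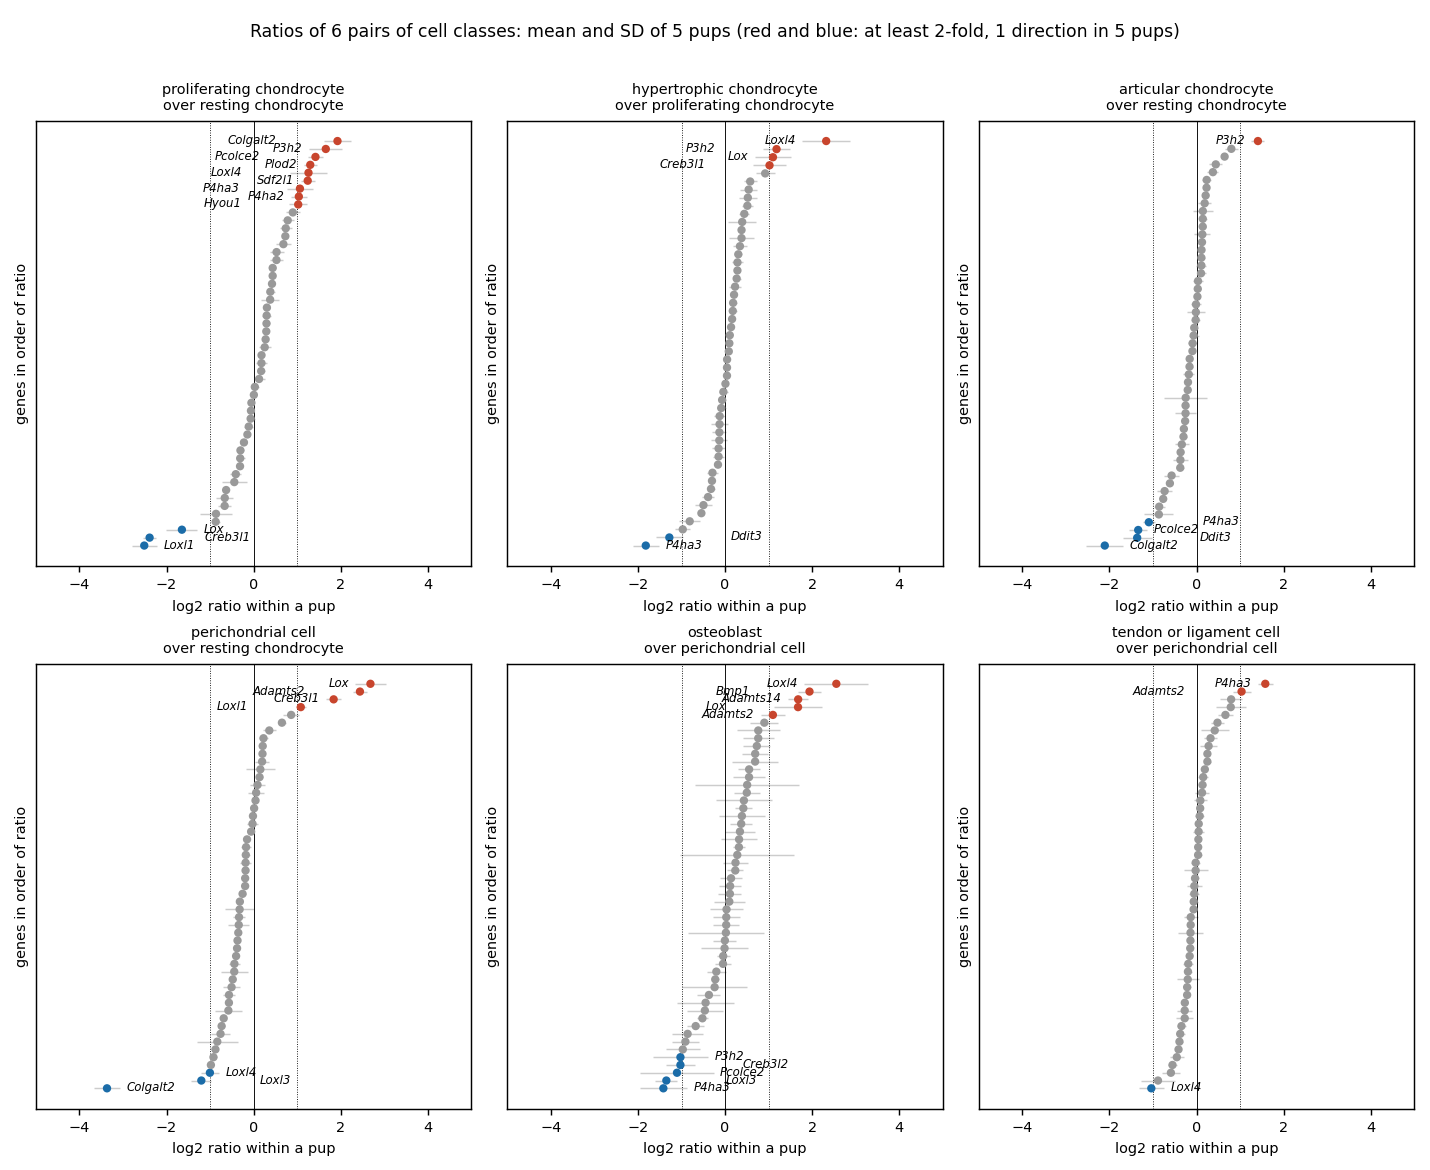
Log2 ratio of CPM between 2 classes for the members whose level averaged 5 CPM or more, 1 panel per comparison, points as means with SD over 5 pups and called genes in colour. Colgalt2 and P3h2 lie furthest to the right in proliferating over resting cells, and Lox and Adamts2 in perichondrial over resting cells.

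The study's question is what the knock-in does, and for the 53 genes it was put to UMIs summed per pup in all cells and in 12 classes with at least 50 cells in every pup (edgeR quasi-likelihood test, Benjamini-Hochberg adjusted over all genes tested). No member passed an adjusted p of 0.05 in all cells or in any class, and 3 of 53 had an unadjusted p under 0.05 in all cells, where 5.56% of all genes had. Of all genes, 0.0% were called in all cells and in 10 classes, 0.0875% in macrophages and 0.00847% in perichondrial cells. Over the 12 classes, which share the pups, 51 of 634 tests of a member had an unadjusted p under 0.05, which is 8.04%, where 5.74% of the tests of all genes had; the most were 12 of 53 in the Ostn-led cluster, where 9.02% of all genes had. DESeq2 called 1 member in resting cells, Ddit3, where it called 0.289% of all genes, and 0 members elsewhere, at 0.228% of all genes in all cells. With no filter on low genes, edgeR called Ddit3, Creb3l1 and Pcolce in proliferating cells (0.456% of all genes), Dnajb9 and Plod2 in the Ostn-led cluster (0.376%), Ddit3 in cycling (0.119%) and Tgfbi cells (0.239%), Pcolce in hypertrophic (0.103%) and Loxl1 in perichondrial cells (0.178%). With 2 against 3 pups an exact permutation test of a single value cannot go below 0.1. In all cells 41 members had a log2 difference above 0 and 12 below, with a median of 0.13 against -0.02 over all genes. In all cells 10 of 53 had pups of the 2 labels that did not overlap, where 22.5% of all genes did, in resting cells 9 of 53 (25.0% of all), and in the Ostn-led cluster 18 of 53 (28.7% of all). Over the 12 classes the share of all genes without overlap ran from 18.8% to 28.7%, which holds for each lack of overlap named below. In the values below, the levels are normalised CPM of pups 1 and 2, then of pups 3, 4 and 5, and the differences are log2, Mutant over Wild type.

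Ddit3 had the smallest p of the group in resting, cycling and all cells. In resting cells it was 143 and 156 in the pups labelled Wild type and 95.7, 89.3 and 116 in those labelled Mutant, a difference of -0.57 (SE 0.12, adjusted p = 0.53). All 3 pups labelled Mutant were below both labelled Wild type, with pup 5 nearest to them. In cycling cells, Ddit3 was 96.2 and 102 against 65.9, 54.6 and 75.2 CPM, a difference of -0.60 (SE 0.13, adjusted p = 0.80). In all cells, Ddit3 was 98.6 and 99.5 against 73.9, 63.4 and 84.2 CPM, a difference of -0.42 (SE 0.13, adjusted p = 0.84). In fibroblasts, Ddit3 was 66.5 and 71.2 against 61.1, 49.0 and 60.7 CPM, a difference of -0.28 (SE 0.13, adjusted p = 1.00). The labels did not overlap in these either, and over the 12 classes, which share the same pups, the difference was below 0 in 10 and had no overlap in 6. Other members lacked overlap as often or more, Canx and Pdia6 in 8 classes and Pdia3, Atf4, P3h3 and Dnajb9 in 6. The share of all genes with as many was not counted. The resting class held its 8 clusters in different shares by label: the Sfrp5-led cluster made up 9.36% and 12.7% in pups 1 and 2 and 4.04%, 0.319% and 6.46% in pups 3, 4 and 5, and the Wfdc2-led cluster 22.8% and 22.6% in pups 1 and 2 and 31.3%, 35.7% and 34.8% in pups 3, 4 and 5. The Lbhd2-led cluster also had a lower share in all pups labelled Mutant, and the other 5 overlapped. Within the Wfdc2-led cluster Ddit3 was 139 and 125 against 81.9, 81.1 and 87.8 CPM, and within the Sfrp5-led cluster, with 15 cells in pup 4, 225 and 216 against 232, 129 and 138 CPM, where the labels overlapped. The difference in resting cells was -0.54 (adjusted p = 0.80) without the Sfrp5-led and -0.53 (adjusted p = 0.87) without the Wfdc2-led cluster, fits added after seeing the data. Summed dissociation response genes in resting cells were 20235, 17580.3, 11515, 15870.3 and 19223 CPM in pups 1 to 5, lowest in pups 3 and 4, and their part in the Ddit3 difference was not tested. Pups 3 and 4 are also the pups with Xist; with pups 1, 2 and 5 alone, where pup 5 is the single pup labelled Mutant and no call is read, the difference in resting cells was -0.36. Atf4, which encodes the factor upstream of CHOP, was 539 and 583 against 502, 405 and 425 CPM in the Tgfbi class, a difference of -0.34 (SE 0.13, adjusted p = 0.96), and lay below 0 in 11 of 12 classes. How many of all genes did so in 11 of 12 was not counted.

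Dnajb9, which encodes the BiP co-chaperone ERdj4, went the other way and was above 0 in all 12 classes. In the Ostn-led cluster it was 66.3 and 59.2 in the pups labelled Wild type and 112, 107 and 93.9 in those labelled Mutant, a difference of 0.75 (SE 0.15, adjusted p = 0.46). The 3 pups labelled Mutant lay above both others. In tendon cells, Dnajb9 was 81.5 and 78.6 against 107, 114 and 95.5 CPM, a difference of 0.40 (SE 0.11, adjusted p = 0.91). In fibroblasts, Dnajb9 was 86.6 and 81.9 against 98.5, 124 and 107 CPM, a difference of 0.38 (SE 0.12, adjusted p = 1.00). In perichondrial cells, Dnajb9 was 70.6 and 82.6 against 113, 101 and 82.9 CPM, a difference of 0.38 (SE 0.14, adjusted p = 0.74). In articular cells, Dnajb9 was 70.4 and 63.7 against 77.4, 82.8 and 77.7 CPM, a difference of 0.24 (SE 0.10, adjusted p = 0.87). In all cells, Dnajb9 was 67.4 and 64.0 against 84.9, 92.1 and 70.1 CPM, a difference of 0.33 (SE 0.13, adjusted p = 0.84). The tendon class also differed in its make-up, with 25.1% and 17.0% in pups 1 and 2 and 27.2%, 30.1% and 32.1% in pups 3, 4 and 5 of its cells in a cluster led by the heat shock genes Hspa1b and Hspa1a. Without that cluster, a fit added after seeing the data, the difference in tendon cells was 0.35 (adjusted p = 0.95) for Dnajb9 and 0.25 (adjusted p = 0.95) for Pdia6, and within it Dnajb9 was 90.9 and 104 against 126, 122 and 115 CPM. Pdia6 within it was 164 and 181 against 216, 191 and 175 CPM, with overlap. Of the 4 tendon clusters, the labels overlapped in 3 for Pdia6 and in 2 for Dnajb9. In each of the classes named and in all cells the labels did not overlap for Dnajb9, though in perichondrial cells pups 2 and 5 lay within 1 CPM of each other. Manf in the Tgfbi class was 237 and 234 against 286, 294 and 272 CPM, a difference of 0.27 (SE 0.11, adjusted p = 0.96), and Pdia6 in tendon cells 165 and 161 against 200.4, 206 and 179.9 CPM, a difference of 0.26 (SE 0.10, adjusted p = 0.91). Both were above 0 in all 12 classes, as were Pdia3, Creb3l1, Creb3l2, Dnajb11, Colgalt1, P4ha1, Fkbp9 and Serpinh1, and Fkbp10 was below 0 in all 12. That is 11 above and 1 below of 51 members tested in all 12, where 7.23% and 6.12% of all genes were, and the classes come from the same 5 pups. Hspa5 was below 0 in 11 of 12, a count for which no share of all genes was taken. None of these differences passed the test, and Dnajb9 in the Ostn-led cluster did in the fit with no gene filter (adjusted p = 0.00424).

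Among the genes of collagen modification and export, Pcolce in the Ostn-led cluster was 599.7 and 609 in the pups labelled Wild type and 425, 468 and 412 in those labelled Mutant, a difference of -0.47 (SE 0.11, adjusted p = 0.46). In the Igfbp3-led cluster, Pcolce was 788 and 704 against 569.6, 592 and 522 CPM, a difference of -0.41 (SE 0.12, adjusted p = 0.47). In hypertrophic cells, Pcolce was 114 and 61.6 against 52.1, 67.0 and 50.2 CPM, a difference of -0.62 (SE 0.26, adjusted p = 1.00). In hypertrophic cells, at levels under the erythroid mean, pup 1 stood far above the other 4 and the labels overlapped; without pup 2, which leaves 1 pup labelled Wild type and takes its spread to be that of the others, the difference was -1.02 (adjusted p = 0.031), so that 1 library decides the call. That fit called 0.172% of all genes. P3h3 was 124 and 121 against 96.4, 88.3 and 89.9 CPM in proliferating cells, a difference of -0.42 (SE 0.10, adjusted p = 0.83), and 87.2 and 79.6 against 64.0, 62.4 and 62.1 CPM in hypertrophic cells, a difference of -0.41 (SE 0.11, adjusted p = 1.00). Its pups did not overlap in either class. P4ha3 in the Igfbp3-led cluster was 89.4 and 82.7 against 111, 131 and 93.2 CPM, a difference of 0.39 (SE 0.14, adjusted p = 0.60). In macrophages, where both genes lay under their erythroid means, P4ha2 was 34.0 and 27.8 against 43.3, 57.0 and 42.9 CPM (0.63 (SE 0.22, adjusted p = 0.67)) and P3h2 8.51 and 9.93 against 14.2, 25.8 and 14.3 CPM (0.91 (SE 0.34, adjusted p = 0.73)). Creb3l1 was 26.0 and 21.0 against 39.3, 38.8 and 28.2 CPM in proliferating cells, a difference of 0.59 (SE 0.17, adjusted p = 0.83), under its erythroid level in every pup, and 163 and 160.1 against 174, 187 and 206 CPM in articular cells, a difference of 0.23 (SE 0.11, adjusted p = 0.87).

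Of the lysyl oxidases, Loxl1 in perichondrial cells was 48.6 and 51.1 in the pups labelled Wild type and 76.1, 82.2 and 55.8 in those labelled Mutant, a difference of 0.52 (SE 0.15, adjusted p = 0.72). Pups 3 and 4 were highest and pup 5 close to pup 2, and without pup 5 the difference was 0.66 (adjusted p = 0.033). That fit called 0.102% of all genes and sets 2 pups with Xist against 2 with Ddx3y, so that sex and label cannot be told apart in it. In resting cells, Loxl4 was 19.7 and 19.97 against 29.8, 28.4 and 24.0 CPM, a difference of 0.47 (SE 0.12, adjusted p = 0.63). In cycling cells, Loxl4 was 20.9 and 17.4 against 27.3, 26.6 and 26.5 CPM, a difference of 0.48 (SE 0.12, adjusted p = 0.80). Neither class overlapped as a whole, and both lay near the erythroid mean of 20.4 CPM. Within the 8 resting clusters, Loxl4 was above in the pups labelled Mutant in 2 and overlapped in 6. The Wfdc2-led cluster, a larger share of the class in those pups, held 40.6 and 39.3 against 46.1, 45.2 and 40.8 CPM. Without it, a fit added after seeing the data, the difference in resting cells kept its direction and was not called.

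Whether the difference by label was itself different between hypertrophic and resting cells was tested as an interaction with pup as a block (edgeR quasi-likelihood test). No member and 0.0% of all genes were called, and 6 of 53 members had an unadjusted p under 0.05, where 3.29% of all genes had. Pcolce had the smallest p: its difference in hypertrophic cells minus that in resting cells was -0.70 (SE 0.13, adjusted p = 0.37), and -0.81 (adjusted p = 0.0028) without pup 2, in a fit that leaves 1 pup labelled Wild type and called 0.959% of all genes. The hypertrophic Pcolce values behind it lie under the erythroid mean, with pup 1 far above the others. P3h3 followed with -0.39 (SE 0.12). With no gene filter 3 members were called, Pcolce, Colgalt2 and Loxl4, and 0.211% of all genes.

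**Figure D5:**
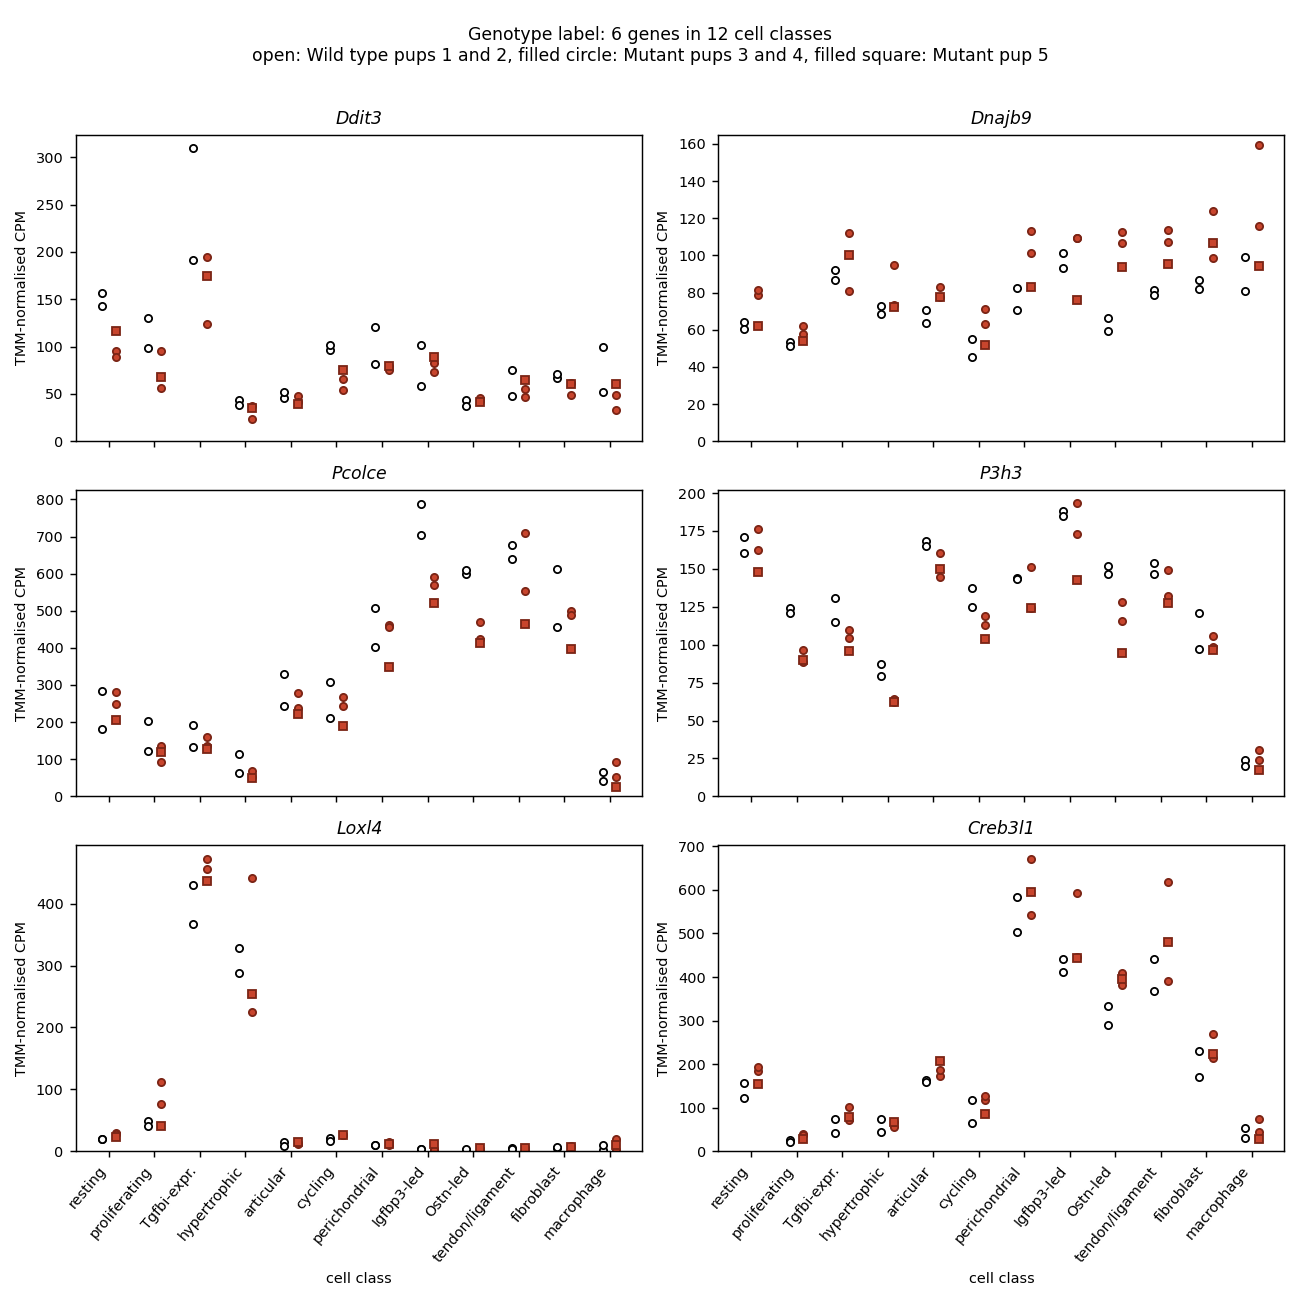
Normalised CPM per pup, 1 point a pup, of 6 members in 12 classes, with pups labelled Wild type as open points and those labelled Mutant filled (pup 5 square). The 3 pups labelled Mutant lie below both others for Ddit3 in 6 of 12 classes and above both for Dnajb9 in 6 of 12. For Canx and Pdia6, not drawn, they lie above both in 8 of 12, and all classes come from the same pups.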

How the data were processed

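Growth plate cells of 5 pups, 2 labelled Wild type and 3 labelled Mutant, were profiled on the BD Rhapsody platform, and the authors deposited raw UMI counts for each gene and cell barcode of each pup, made with the BD Rhapsody analysis pipeline against mm10 per the submitters' processing notes and the study's methods. Cell types were rebuilt here and may differ from the study's. The 53 genes and the other gene lists were chosen with earlier results of these data known.

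Of 84382 barcodes, 82516 with 200 to 6000 genes and at most 10% mitochondrial UMIs were kept. Doublets were not removed, because Scrublet marked 0 cells. Cells were clustered in Python 3.11.15 (scanpy 1.11.5, leidenalg 0.10.2, scikit-learn 1.9.0, numpy 2.4.6, pandas 2.3.3, scipy 1.17.1) on Pearson residuals taken per pup of 3000 variable genes, without the 53 genes, the other lists, mitochondrial genes, Xist and Y-linked genes, with 50 principal components, 20 neighbours and Leiden resolution 1.5, which gave 41 clusters. A cluster took a name where at least 3 of its markers were above the other cells and detected in at least 10% of its cells, its score was within 0.5 of the best, and its 10 leading genes did not go against it. Some collagens, such as Col1a1, Col9a1 and Col10a1, were left out of the clustering but were on the marker lists. These naming limits were set after values had been seen. Levels are UMIs per 1000000 UMIs of a pup's class (CPM), for classes with at least 20 cells in every pup. Ratios between classes were taken within a pup with 1 CPM added.

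Differences by label were tested on UMI counts summed per pup, in all cells and in classes with at least 50 cells in every pup, with edgeR 4.0.16 (TMM, filterByExpr, quasi-likelihood; limma 3.58.1, R 4.3.3) and Benjamini-Hochberg adjustment over all genes. The script was tested on simulated data. Replicates are pups of 1 experiment. DESeq2 1.42.0, no gene filter, other filters and resolutions, and leaving out each pup were alternatives, and an analysis of the pups with Ddx3y UMIs alone and the use of a Cilp2-led cluster as the perichondrial class, and resting and tendon classes without 1 of their clusters, were added after seeing the data. Values per pup are given for the 2 members of each role group with the widest range of mean log2 level among those with at least 5 CPM, and for the 2 with the smallest p in each class where none passed the test. Promoters are from RefSeq (GRCm38.p6) and matched 38 of the 53 genes by symbol.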

Additional observations from a re-analysis of the deposited data

How the results depend on the processing

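No paired analysis was possible because the pups of the 2 labels share no replicate numbers. Doublet removal gave no separate value, since Scrublet marked 0 cells. Alternatives were followed for 28 differences by label, the 2 with the smallest p in each class, in all cells and in the interaction. Of their alternative values, 284 stayed on the same side of the threshold with the same direction, 10 passed it and 0 changed direction. These 28 were picked by p from the same pups, so the counts do not speak for the other members. Members called by label numbered 0 in all cells, in each class and in the interaction of label with hypertrophic against resting cells. With no gene filter they numbered 3 in proliferating cells (of 119 genes called), 2 in the Ostn-led cluster (of 76), 1 each in cycling (of 30), hypertrophic (of 24), perichondrial (of 39) and Tgfbi cells (of 53) and 3 in the interaction (of 58), and with DESeq2 1 in resting cells (Ddit3, adjusted p = 0.025, of 47). The 6 differences given in the report that passed with no gene filter were Dnajb9 in the Ostn-led cluster, Ddit3 in cycling, Creb3l1 in proliferating, Loxl1 in perichondrial and Pcolce in hypertrophic cells and in the interaction. Leaving out 1 pup at a time gave 0 to 1 in hypertrophic cells (Pcolce without pup 2, of 21 genes called), 0 to 1 in perichondrial cells (Loxl1 without pup 5, of 12) and 0 to 1 in the interaction (Pcolce without pup 2), where 162 genes of all were called. Over all genes, DESeq2 called 48 in all cells and 47 in resting cells, the unfiltered fit up to 130 (macrophages), and the 3 pups with Ddx3y UMIs, with pup 5 alone labelled Mutant and the spread from pups 1 and 2, up to 181 (Igfbp3-led cluster), against 0 in each except 9 in macrophages.

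Ratios between classes were followed only where a member was called in the report and was 1 of the 2 in its role group with the widest range. Of their alternative values, 269 moved by less than the spread between pups, 41 moved by more and 3 changed sign. At resolution 0.8 the called members numbered 7 in proliferating over resting cells (12 in the report; of all genes, 10.3% against 13.4%), 13 in perichondrial over resting cells (7; 10.7% against 8.34%) and 1 in tendon over perichondrial cells (3; 4.91% against 5.58%), which was also 1 with 5 CPM added (3.93%). With no upper limit on genes per cell they numbered 9 in articular over resting cells (5; of all genes, 9.28% against 6.00%), 18 in perichondrial over resting cells (7; 18% against 8.34%) and 6 in osteoblasts over perichondrial cells (10; 13.1% against 18.4%). Without that limit the ratio of osteoblasts over perichondrial cells turned for P3h2 (0.35) and Pcolce2 (1.53), and that of tendon over perichondrial cells for Loxl4 (0.71). These values compare other cells under the same name. Without the limit the class named perichondrial was made up of cells of the Igfbp3-led (64.4%) and Ostn-led (34.3%) clusters, and at resolution 0.8 the perichondrial class took in 98.8% and 99.8% of those clusters. With the Cilp2-led cluster of the clustering without the limit in its place, an alternative chosen after seeing the data, the members called numbered 10, 7 and 2 (of all genes, 10.9%, 19.5% and 5.86%) and no sign changed. The resting class without the limit held 58.6% of the resting cells of the report, and 77.7% of the proliferating cells fell in an unnamed cluster, so the 2 comparisons with proliferating cells gave no value there. Another 20.3% of the proliferating cells fell in the class named hypertrophic and made up 46.4% of it. The Igfbp3-led and Ostn-led clusters gave no value of their own without the limit or at resolution 0.8. For the other changes the cause was not tested. The osteoblast class held as few as 23 cells in a pup. At resolution 0.8, 60.8% of its cells kept the name and 25.8% fell in the Tgfbi class, while without the upper limit 100% kept it.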
